A study of Homo sapiens with 26 samples.

Results

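The transcripts of 9 squamous lineage transcription factors, SOX2, KLF4, KLF5, PITX1, PAX9, ZNF750, GRHL2, GRHL3 and TFAP2A, were followed in esophageal squamous cell carcinoma (ESCC) cells after loss or gain of the bromodomain protein BRDT and after loss of p63. The genes were chosen by symbol as factors known to shape squamous epithelium, 9 of 26485 listed genes, and all 9 were found in each of the 5 expression tables. Earlier results of these data were known when they were chosen. mRNA-seq of 26 libraries had been performed to ask how BRDT, a reader of acetylated histones normally confined to the testis, affects the gene programme of p63. The cells were 3 established human ESCC lines, each derived from a single tumour. KYSE180 cells were transfected with a control siRNA (siCont, n = 3) or an siRNA against BRDT (siBRDT, n = 3), and in a separate experiment with siCont (n = 2) or an siRNA against TP63 (siTP63, n = 2). TE6 cells received siCont, siBRDT or siTP63 (n = 2 each) in 1 experiment, so both TE6 comparisons share their siCont libraries. KYSE150 cells received siCont or siTP63 (n = 2 each), and in a last experiment KYSE150 cells carrying a BRDT expression plasmid (BRDT-OE, n = 3) were compared with control cells (n = 3). The siRNA-treated cells were harvested after 48 h. No source states whether the libraries of a group came from separate cultures, so p-values measure only the spread between these libraries, which may be technical. In bulk RNA, fewer cells that express a gene and less RNA per cell cannot be told apart.

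Squamous epithelium is maintained by p63 together with a network of other DNA-binding factors. SOX2 is a lineage factor of the foregut and is often amplified together with TP63 in squamous tumours, and PITX1 and PAX9 are homeodomain and paired-box factors that pattern foregut and oral epithelium. KLF4 and KLF5 are zinc-finger factors, the former favouring exit from the cell cycle and differentiation, the latter supporting proliferation of basal cells. GRHL2 and GRHL3 are grainyhead factors that control junctions and barrier genes, ZNF750 is a p63 target that drives late differentiation, and TFAP2A is an AP-2 factor of surface ectoderm.

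The 9 genes lie on different chromosomes, and SOX2 shares the long arm of chromosome 3 with TP63 (hg38, GENCODE release 44). SOX2 is at chr3:181711925-181714436 on the plus strand inside the non-coding gene SOX2-OT, KLF4 at chr9:107484852-107490482 (minus) and KLF5 at chr13:73054976-73077541 (plus). PITX1 is at chr5:135027734-135034813 (minus) and is overlapped on the other strand by the antisense PITX1-AS1. PAX9 is at chr14:36657568-36679362 (plus) and is overlapped on the other strand by SLC25A21, and ZNF750 is at chr17:82829434-82840022 (minus) inside TBCD. TFAP2A is at chr6:10393186-10419659 (minus) and is overlapped on the other strand by TFAP2A-AS1 and TFAP2A-AS2. GRHL3 is at chr1:24199558-24364482 (plus), where it overlaps LINC02800 on its own strand and GRHL3-AS1 and STPG1 on the other. Strand use in the authors' counting was not given in the sources used here, so reads of these overlapping genes cannot be told apart from those of the members.

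The bases before the start sites are shown for KLF4, KLF5 and GRHL3, because these genes had the largest called changes among the 9. Windows of 250 bases before RefSeq (GRCh38.p14) start sites were taken for 7 of the 9 genes, 11 windows in all. No window was taken for GRHL2 or ZNF750, so these 2 genes were not searched. The p53-family decamer, the sequence unit to which p53, p63 and p73 bind, was searched in each window on both strands. It was found in 2 of the 11 windows, at the second PAX9 start and the second GRHL3 start, and in 5.57% of all 35116 windows. Capitals mark the decamer, and each window runs 5′ to 3′ on the strand of the gene. The windows lie at chr1:24319107-24319356 (plus) and chr1:24322790-24323039 (plus) for GRHL3, at chr9:107489770-107490019 (minus) for KLF4 and at chr13:73058755-73059004 (plus) for KLF5.
GRHL3 first start: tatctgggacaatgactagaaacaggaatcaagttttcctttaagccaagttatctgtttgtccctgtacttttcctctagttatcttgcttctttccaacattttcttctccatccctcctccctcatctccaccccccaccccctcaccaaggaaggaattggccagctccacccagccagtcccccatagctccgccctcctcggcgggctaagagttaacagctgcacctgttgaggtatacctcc
GRHL3 second start: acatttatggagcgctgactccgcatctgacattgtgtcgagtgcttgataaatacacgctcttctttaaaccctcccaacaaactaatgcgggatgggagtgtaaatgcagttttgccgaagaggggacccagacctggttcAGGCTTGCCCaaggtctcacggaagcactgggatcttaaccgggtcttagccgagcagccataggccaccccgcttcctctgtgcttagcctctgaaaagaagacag
KLF4: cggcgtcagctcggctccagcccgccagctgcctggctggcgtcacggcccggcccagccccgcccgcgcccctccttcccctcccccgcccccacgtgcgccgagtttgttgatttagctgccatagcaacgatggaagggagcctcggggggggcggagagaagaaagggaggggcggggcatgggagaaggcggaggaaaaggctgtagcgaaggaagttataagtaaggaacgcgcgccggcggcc
KLF5 second start: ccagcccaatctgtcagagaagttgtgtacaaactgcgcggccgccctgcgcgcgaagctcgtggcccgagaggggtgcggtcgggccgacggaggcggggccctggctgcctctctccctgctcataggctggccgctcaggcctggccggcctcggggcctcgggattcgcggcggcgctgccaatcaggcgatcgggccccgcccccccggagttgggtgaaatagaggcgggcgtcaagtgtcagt
In GRHL3 the decamer begins 107 bases before the second start. The KLF4 and KLF5 windows hold none. A match describes letters only and shows no binding, and the files do not say from which start the reads came.

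In the control libraries the levels of the 9 genes ranged from that of a dominant lineage gene to a barely detected one. Levels are given as RPM (reads in 1000000 reads of a library) per kb of the longest transcript. In KYSE180 siCont of the BRDT experiment SOX2 was highest at 214 ± 10.6 (SD, n = 3), followed by KLF5 at 93.2 ± 5.92, PITX1 at 27.4 ± 1.52, GRHL2 at 24.2 ± 1.09, PAX9 at 12.4 ± 1.14, TFAP2A at 10.7 ± 1.30, KLF4 at 6.27 ± 0.559, GRHL3 at 1.46 ± 0.215 and ZNF750 at 0.309 ± 0.234. Only PAX9 and TFAP2A among these neighbours had overlapping libraries. In TE6 siCont (n = 2) SOX2 was again highest at 116 ± 5.81, followed by PITX1 at 42.8 ± 6.60, KLF5 at 29.0 ± 2.19, GRHL2 at 16.5 ± 0.349 and PAX9 at 16.1 ± 0.0664, and GRHL3 reached 7.41 ± 0.727. GRHL3 stood above TFAP2A and KLF4 in TE6 and below both in KYSE180. With the median transcript length it stayed below TFAP2A in TE6. KYSE150 differed most: SOX2 lay at 0.182 ± 0.0340 (n = 2) and 0.197 ± 0.0611 (n = 3) in its control groups, or 5 to 11 reads per library.

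PITX1 led in KYSE150 siCont at 27.5 ± 3.92, followed by TFAP2A at 8.88 ± 1.39 and GRHL2 at 6.28 ± 2.10. In the KYSE150 control of the overexpression experiment TFAP2A at 19.1 ± 0.949, KLF5 at 17.7 ± 2.15, PITX1 at 16.1 ± 0.954 and GRHL2 at 14.1 ± 1.37 each overlapped the next in level. GRHL3 was near the detection limit in KYSE150 siCont at 0.0726 ± 0.0164, or 2 and 3 reads, and at 0.677 ± 0.140 in the other control. The libraries of one line also differed between experiments. KYSE180 siCont of the TP63 experiment had KLF5 at 15.6 ± 1.49 and SOX2 at 64.6 ± 4.54, with PITX1 at 45.2 ± 7.76 between them. TP63 itself lay at 33.6 ± 4.94 there and at 180 ± 9.99 in KYSE180 siCont of the BRDT experiment. These levels come from separate experiments and are set side by side without a test. With the median transcript length in place of the longest, 32 to 35 of the 36 pairs of genes kept their order in each control group, and the top gene became KLF5 in KYSE180 of the BRDT experiment, PITX1 in KYSE180 of the TP63 experiment and in TE6, and GRHL2 in the KYSE150 control of the overexpression experiment.

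**Figure D1:**
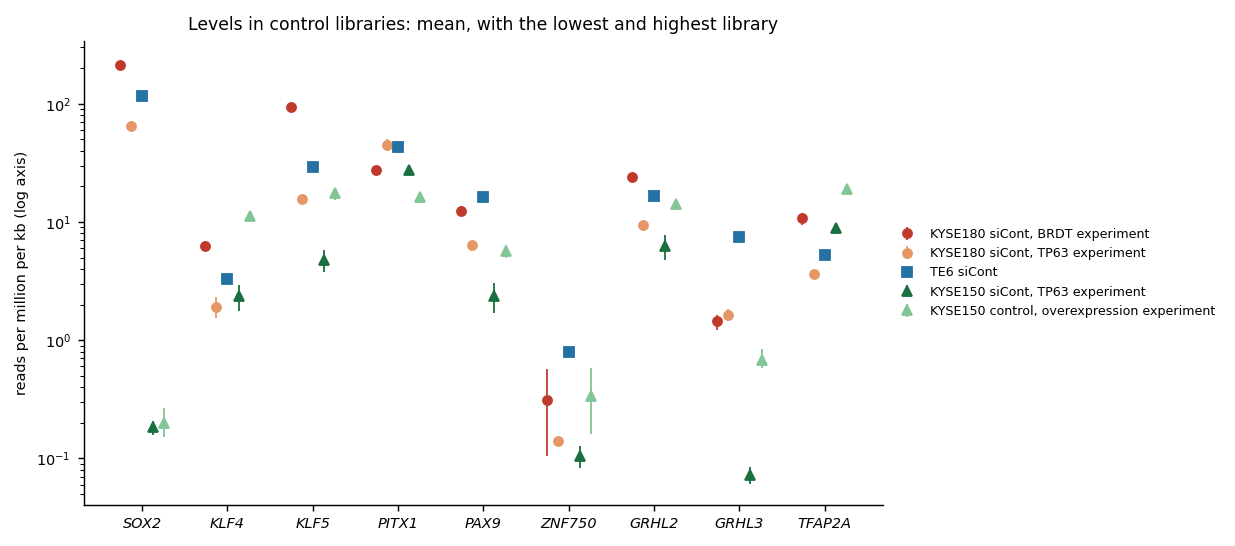
Levels of the 9 genes in control libraries, as RPM per kb of the longest transcript on a log axis, with each point the mean of 2 or 3 libraries and each bar reaching from the lowest to the highest. SOX2 leads in KYSE180 and TE6 and falls to 0.182 and 0.197 in KYSE150.

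The targeted transcripts followed their labels. In KYSE180, BRDT fell from 1017, 1043 and 1136 normalised counts in siCont to 132, 147 and 198 in siBRDT, and in TE6 from 241 and 242 to 55.0 and 46.6. TP63 fell from 2573 and 3035 to 794 and 925 in KYSE180 siTP63 (3.26-fold) and from 2596 and 2785 to 133 and 112 in TE6 siTP63 (21.8-fold). In KYSE150 siTP63 it measured 170.4 and 114 against 695 and 729 (5.07-fold lower, limma adjusted p = 0.0818). That fall was called with no filter on low values (adjusted p = 0.0274), in DESeq2 (adjusted p = 1.03e-08), with length and GC trends subtracted (adjusted p = 0.0152), with a replicate block (adjusted p = 3.15e-05) and without any 1 library (adjusted p from 5.91e-05 to 0.00264). TP63 also fell after siBRDT, by 0.58 on the log2 scale in KYSE180 and by 1.15 in TE6. The KYSE180 change was -0.496 with the libraries scaled to equal totals and -0.485 with length and GC trends subtracted. Both were under the fold limit of 0.5 set for a call. BRDT rose from 8.13, 16.0 and 6.58 to 15872, 15927 and 17542 in BRDT-OE. KYSE150 siCont replicate 1 held 41 reads of BRDT and the other siCont library 7. Libraries held 7582089 to 19372441 reads, at which a floor of 3 reads is 0.155 to 0.396 RPM. Of 10 squamous markers 9 or 10 exceeded that floor in every group. Columnar markers summed to at most 33.1 RPM. Of 11 mesenchymal or fibroblast markers 4 to 11 exceeded the floor, summing to 11.2 to 143, and of 6 leukocyte markers 1 to 5, summing to 6.46 to 111. The squamous sum was lower in every knockdown group than in its siCont, for example in TE6 siTP63 (1311 to 1412 against 6119 to 6191 RPM) and in KYSE180 siTP63 (5227 to 5257 against 8171 to 8427). The leukocyte sum was lower in both knockdowns of TE6 (19.8 to 21.0 in siBRDT and 6.46 to 9.35 in siTP63 against 35.6 to 36.9), in KYSE180 siBRDT (22.6 to 27.8 against 49.2 to 56.4), in KYSE180 siTP63 (13.3 to 15.5 against 29.2 to 31.8) and in BRDT-OE (78.1 to 82.2 against 96.3 to 111). In TE6 siCont and siTP63 the defining markers PTPRC and CD3E were at 0 in all libraries. The mesenchymal sum was higher in KYSE180 siTP63 (83.6 to 92.2 against 46.3 to 51.8) and lower in BRDT-OE (14.9 to 18.6 against 23.8 to 27.3). The columnar sum was higher in both knockdowns of KYSE180 and of TE6, for example in KYSE180 siBRDT (28.1 to 33.1 against 19.4 to 23.3). These sums are in RPM, and scaling to equal totals raised KYSE180 siTP63 changes by 0.52 on the log2 scale above normalised counts. On normalised counts, 1 of 4 mesenchymal markers tested there was called down and 0 up, with a median of -0.010. Of 2 columnar markers tested there 0 were called. The part of the marker shifts in the results was not tested. The median SD of a gene between libraries of a group was 0.0713 to 0.160 on the log2 scale, except in the KYSE150 TP63 experiment, where it was 0.212 and 0.265.

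**Figure D2:**
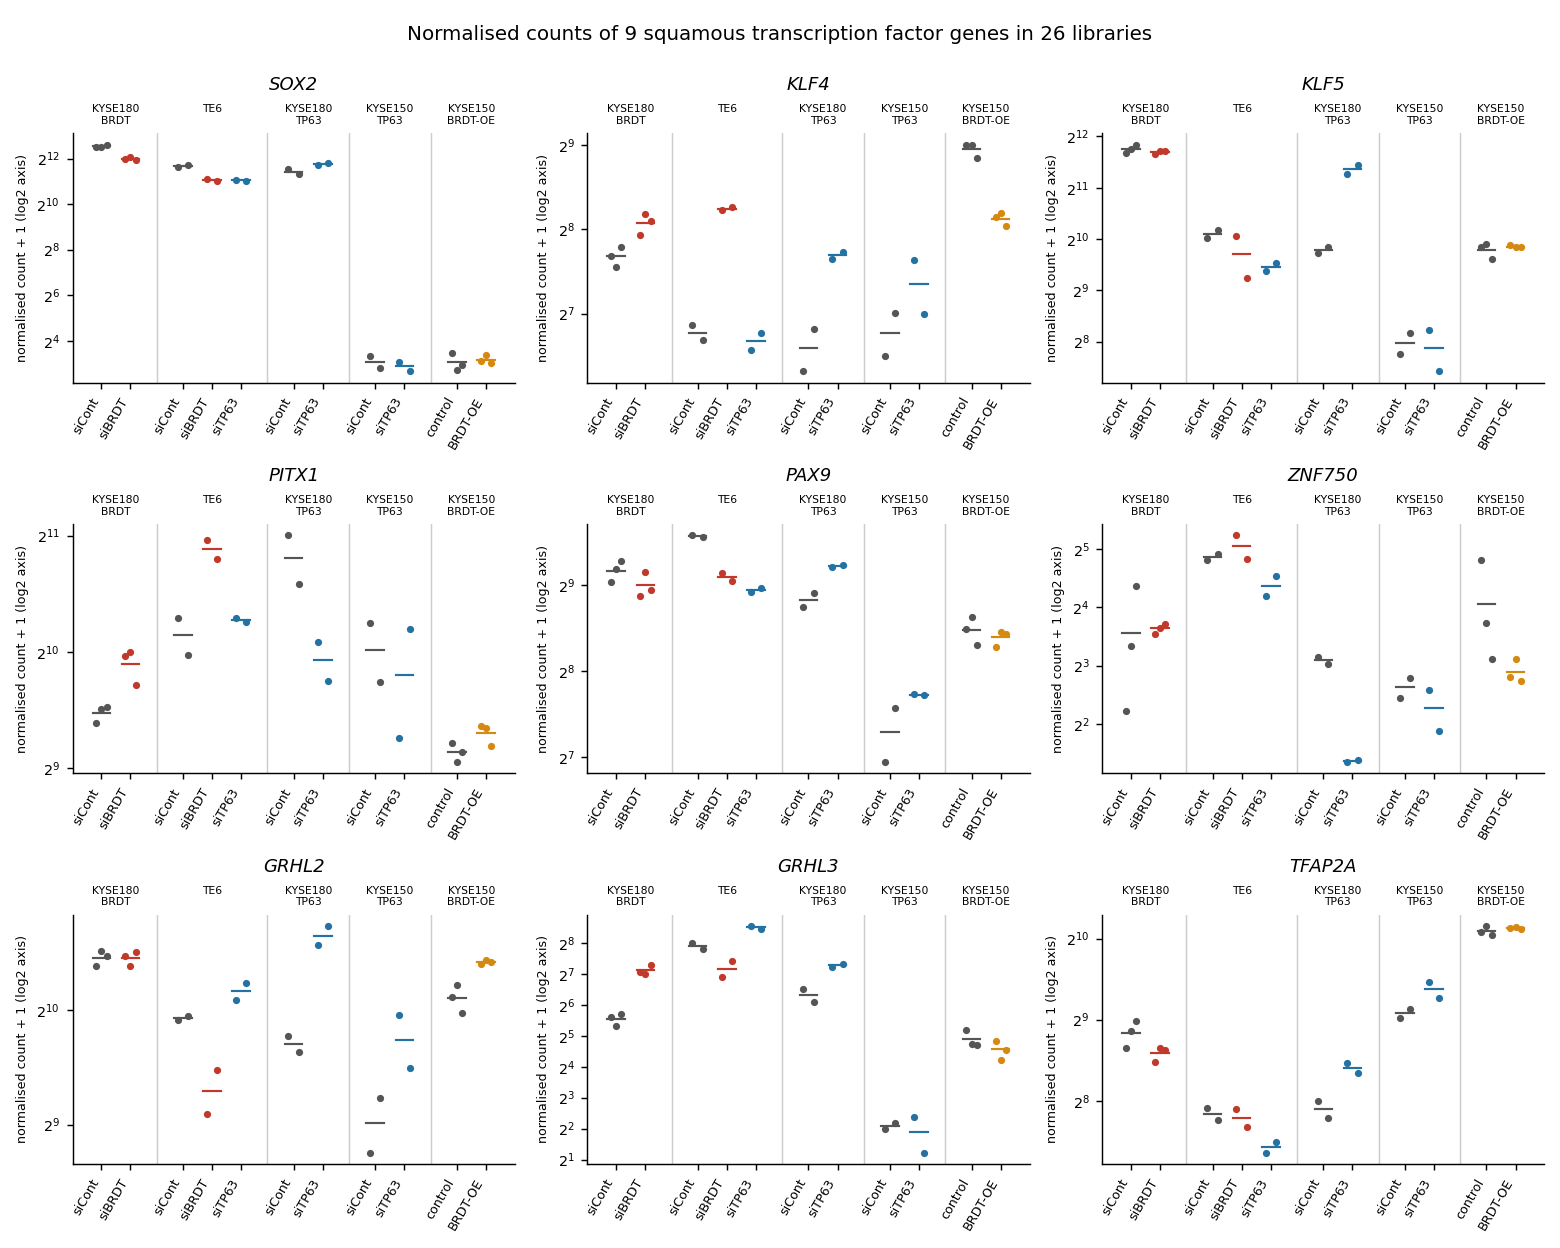
Normalised counts plus 1, on a log2 axis, of the 9 genes in all 26 libraries. Points are libraries, short lines are group means, colours mark control, siBRDT, siTP63 and BRDT-OE, and grey lines part the 5 separately normalised experiments, so levels can be compared only within an experiment.

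Depletion of BRDT changed 2 of the 9 genes in KYSE180, SOX2 downward and GRHL3 upward, where 30.3% of the 13589 genes tested were called (15.8% down and 14.5% up). Calls required a limma adjusted p below 0.05 and a change of 0.5 or more on the log2 scale. In TE6 siBRDT lowered SOX2, GRHL2 and GRHL3 and raised KLF4 and PITX1, 5 of 9, against 33.7% of 13333 genes (18.1% down and 15.6% up). Depletion of TP63 in KYSE180 raised KLF4, KLF5, GRHL2, GRHL3 and TFAP2A and lowered PITX1, 6 of the 8 tested, against 49.3% of 13924 genes (25.7% down and 23.6% up). In TE6 siTP63 lowered SOX2, KLF5 and PAX9 and raised GRHL3, 4 of 9, against 38.9% of 13333 genes (20.6% down and 18.3% up). With 9 genes each share is read only beside that background. The median log2 fold change over the members tested was 0.73 in KYSE180 siTP63 and -0.41 in TE6 siTP63, beside 0.00064 and -0.011 over all genes.

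In KYSE150, limma called 1 member in BRDT-OE and none after siTP63. In the siTP63 experiment it called no gene of the 12335 tested (0%), 17.8% had an unadjusted p under 0.05, edgeR called 0 and DESeq2 called 462, none of them a member. Among the 6 members tested, GRHL2 alone had an unadjusted p under 0.05. BRDT-OE lowered KLF4 alone, 1 of 8 tested, against 26.5% of 12765 genes (16% down and 10.5% up). ZNF750 missed the minimum mean of 10 normalised counts in the KYSE180 and KYSE150 siTP63 experiments, SOX2 missed it in both KYSE150 experiments, and GRHL3 missed it in KYSE150 siTP63.

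**Figure D3:**
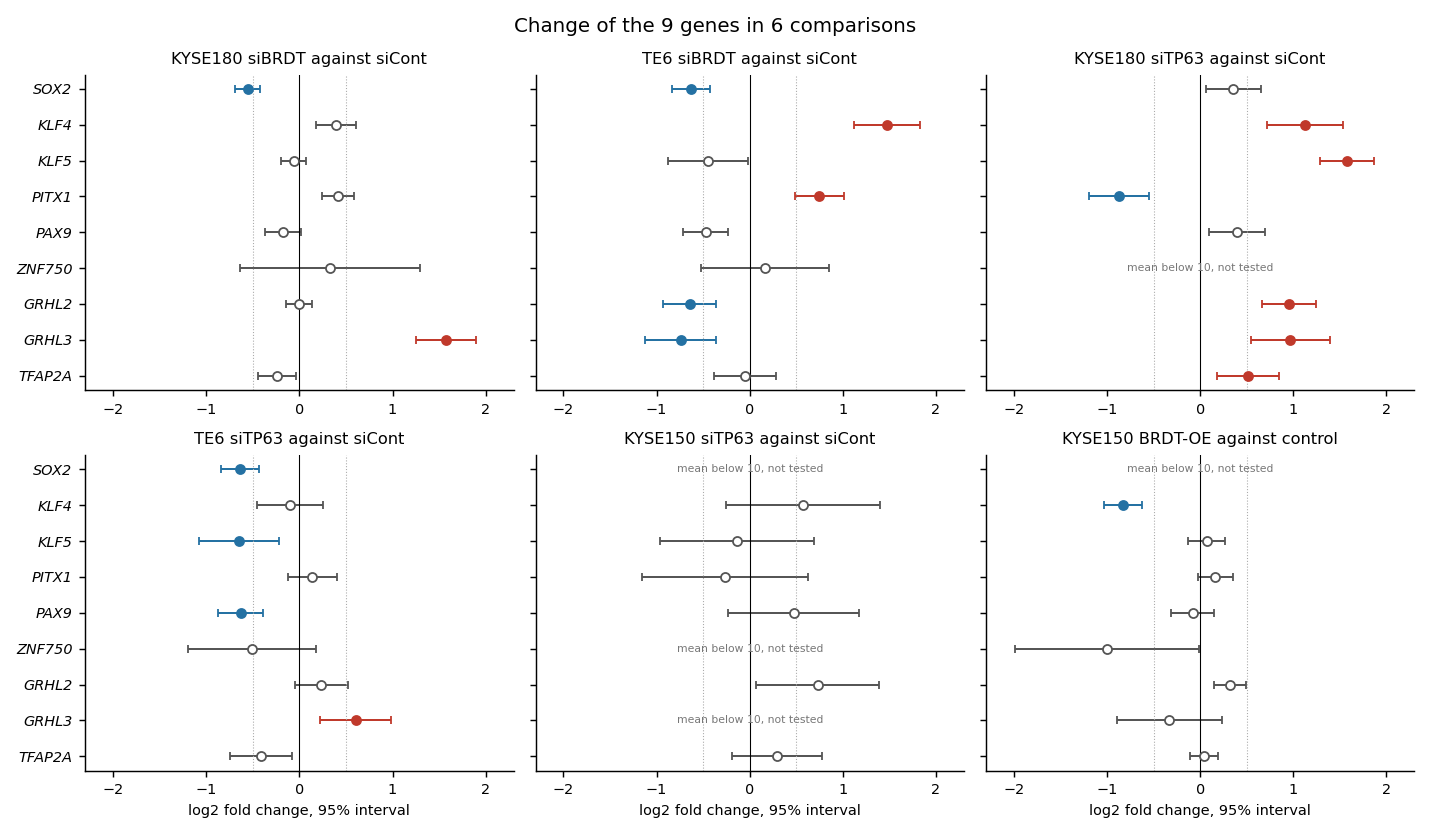
Log2 fold change of each gene with its 95% interval in the 6 comparisons. Filled red and blue points were called up and down, open points were not called, and dotted lines mark 0.5 in either direction. The KYSE180 siTP63 panel holds 6 filled points, the TE6 siBRDT panel 5 and the KYSE150 siTP63 panel 0.

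SOX2 fell after BRDT depletion in both KYSE180 and TE6. In KYSE180 it measured 5789, 5877 and 6255 normalised counts in siCont and 3991, 4256 and 3938 in siBRDT. All siBRDT libraries lay below all siCont libraries. The log2 fold change was -0.56 ± 0.061 (SE, adjusted p = 2.03e-06), and -0.47 with the libraries scaled to equal totals, under the fold limit. In TE6 it measured 3181 and 3393 in siCont, 2184 and 2055 in siBRDT and 2144 and 2072 in siTP63. Both knockdowns lay below siCont and near each other. The changes were -0.63 ± 0.094 (SE, adjusted p = 0.000191) after siBRDT and -0.64 ± 0.094 (SE, adjusted p = 0.000129) after siTP63, from shared siCont libraries, and the treated groups differed by -0.0074 (95% interval -0.21 to 0.20). In KYSE180 siTP63 the libraries stood above siCont, at 3405 and 3612 against 2949 and 2555. That log2 fold change, 0.35 ± 0.14 (SE, adjusted p = 0.0371), was under the fold limit, and it was 0.55 after upper-quartile scaling and 0.88 after scaling to equal totals, both called. Those scalings moved the median of all genes in this comparison by 0.20 and 0.52 on the log2 scale. In KYSE150 SOX2 gave 4 to 11 reads per library, and no change was detectable at this depth.

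PITX1 rose after BRDT depletion in TE6 and fell after TP63 depletion in KYSE180. In TE6 it measured 1255 and 1002 in siCont and 1992 and 1779 in siBRDT, a log2 fold change of 0.75 ± 0.12 (SE, adjusted p = 0.000335), with no overlap. KYSE180 siBRDT stood at 996, 1023 and 838 against 670.1, 728 and 738. These groups did not overlap either, but the value of 0.42 ± 0.082 (SE, adjusted p = 0.000522) was under the limit. It was called at 0.51 without siBRDT replicate 3 and at 0.50 with equal totals, and was 0.24 with length and GC trends subtracted. In KYSE180 siTP63 it fell from 2049.5 and 1537 to 1087 and 861, -0.87 ± 0.16 (SE, adjusted p = 3.57e-05). TE6 siTP63, at 1250.0 and 1219, lay within the siCont range. The change after siTP63 was lower than that after siBRDT by 1.29 in KYSE180, from separate controls (log2; limma adjusted p = 6.82e-06).

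The PITX1 transcript has a GC content of 68.8%, against a median of 48.2% over matched genes. Across genes, GC content and log2 fold change had a Spearman correlation of 0.36 in TE6 siBRDT (n = 12343 genes, which share the libraries), 0.31 in TE6 siTP63, -0.18 in KYSE180 siTP63 and 0.13 in KYSE180 siBRDT. When trends with length and GC content (splines fitted per library) were subtracted, PITX1 changed by 0.20 in TE6 siBRDT (adjusted p = 0.0684, no longer called), by -0.52 in KYSE180 siTP63 (still called) and by 0.55 in KYSE150 BRDT-OE (adjusted p = 7.52e-05, newly called). Scaling to equal totals also took the KYSE180 siTP63 value to -0.35, under the limit. The part of base composition in these values was not tested further.

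PAX9 was lower in both TE6 knockdowns. It measured 763 and 754 in siCont, 565 and 528 in siBRDT and 482 and 499 in siTP63. Every knockdown library lay below both siCont libraries. It fell by the test after siTP63, -0.63 ± 0.11 (SE, adjusted p = 0.000529), while the siBRDT value, -0.47 ± 0.11 (SE, adjusted p = 0.00433), was under the limit and was called without siBRDT replicate 1 (-0.52) and with equal totals (-0.57). After subtraction of the GC and length trends the siBRDT value was -0.22 (adjusted p = 0.0922) and the siTP63 value -0.47, under the limit. KYSE180 siTP63 libraries lay above siCont, at 589 and 601 against 426 and 480.5. That change, 0.39 ± 0.15 (SE, adjusted p = 0.0240), was under the limit and was called after upper-quartile (0.59) and equal-total scaling (0.92). With the trends subtracted it was 0.21 (adjusted p = 0.132). In KYSE180 siBRDT the libraries overlapped, at 467, 568 and 492 against 523, 579.9 and 621.

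KLF4 had the largest change of the 9 genes in TE6 siBRDT and the only limma call in KYSE150. In TE6 siBRDT it rose from 115 and 102 to 299 and 307, 1.48 ± 0.16 (SE, adjusted p = 2.58e-05), which is 2.78-fold. KYSE180 siBRDT stood at 243, 289 and 274 against 205, 187 and 221, with no overlap and a change of 0.39 ± 0.10 (SE, adjusted p = 0.00403) under the limit. Gain of BRDT in KYSE150 had the opposite sign. KLF4 fell there from 511, 514 and 460.4 in control to 282, 292 and 262 in BRDT-OE, -0.83 ± 0.091 (SE, adjusted p = 5.60e-05), and no control library reached the BRDT-OE range. After siTP63 it rose in KYSE180 from 78.6 and 112 to 200.2 and 212, 1.13 ± 0.20 (SE, adjusted p = 3.01e-05). In TE6 siTP63 it measured 93.6 and 108, overlapping siCont, and in KYSE150 siTP63 199 and 126 against 89.1 and 127, also overlapping.

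KLF5 had the largest change of the 8 genes tested in KYSE180 siTP63. It rose from 843 and 924 to 2474 and 2788, 1.57 ± 0.14 (SE, adjusted p = 1.15e-09), which is 2.97-fold. TE6 siTP63 went the other way, from 1042 and 1152 to 660.2 and 737, -0.65 ± 0.20 (SE, adjusted p = 0.0151). The groups did not overlap, but the call was lost without siCont replicate 1 (-0.72), siCont replicate 2 (-0.58), siTP63 replicate 1 (-0.57) or siTP63 replicate 2 (-0.73), and in DESeq2 (adjusted p = 0.125). In TE6 siBRDT the libraries stood at 1065 and 602, 1 inside the siCont range and the other below it. The value of -0.45 ± 0.20 (SE, adjusted p = 0.0788) was called at -0.86 without siBRDT replicate 1 and at -0.55 with equal totals, and was -0.041 without siBRDT replicate 2. KYSE180 siBRDT, at 3216, 3348 and 3381 against 3276, 3454 and 3667, overlapped siCont, and the 95% interval of its change was -0.19 to 0.069. In BRDT-OE the interval was -0.13 to 0.27.

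GRHL3 rose after BRDT depletion in KYSE180 and fell in TE6. In KYSE180 it went from 47.8, 38.6 and 51.0 in siCont to 132, 126 and 155 in siBRDT, 1.57 ± 0.15 (SE, adjusted p = 5.87e-07), which is 2.97-fold. In TE6 it went from 254 and 219.6 to 118 and 168, -0.74 ± 0.18 (SE, adjusted p = 0.00432). The groups were apart in both lines. The TE6 fall was not called without siCont replicate 1 (-0.64, adjusted p = 0.0673) or siBRDT replicate 1 (-0.49). After TP63 depletion GRHL3 rose in both lines. KYSE180 went from 89.7 and 67.8 to 147 and 159.7, 0.97 ± 0.21 (SE, adjusted p = 0.000284), and TE6 from the same siCont libraries to 370.2 and 351, 0.61 ± 0.18 (SE, adjusted p = 0.0119). The TE6 rise was not called without siCont replicate 2 (0.50), siTP63 replicate 1 (0.57) or siTP63 replicate 2 (0.65), nor after subtraction of the GC and length trends (0.47). KYSE150 held 1 to 5 reads per library in the siTP63 experiment. BRDT-OE, at 27.5, 17.8 and 22.5 against 35.2, 25.5 and 25.2, overlapped its control.

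GRHL2 fell after BRDT depletion in TE6 and rose after TP63 depletion in KYSE180. In TE6 it went from 962 and 985 to 545 and 709.6, -0.65 ± 0.13 (SE, adjusted p = 0.00162), with no overlap. Without siBRDT replicate 1 the value was -0.46, and after subtraction of the GC and length trends -0.47, both under the limit. In KYSE180 siBRDT, at 1420.0, 1339.5 and 1452 against 1338, 1462 and 1416, the groups overlapped and the interval of the change was -0.14 to 0.14. KYSE180 siTP63 went from 873 and 792 to 1515 and 1702, 0.95 ± 0.14 (SE, adjusted p = 3.10e-06). TE6 siTP63, at 1087 and 1209, lay above both siCont libraries, with a change of 0.24 ± 0.13 (SE, adjusted p = 0.151). KYSE150 siTP63 stood at 991 and 720.0 against 431 and 601, with a change of 0.73 ± 0.27 (SE, adjusted p = 0.244). BRDT-OE measured 1352, 1384 and 1372 against 1105, 1190.3 and 1006, a change of 0.32 ± 0.078 (SE, adjusted p = 0.00629) under the limit.

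TFAP2A rose in KYSE180 siTP63 by just more than the limit. It went from 255 and 219.7 to 353 and 323, 0.51 ± 0.16 (SE, adjusted p = 0.00892). The groups did not overlap, but the call was lost without siCont replicate 2 (0.41) or siTP63 replicate 1 (0.45) and after subtraction of the GC and length trends (0.42). With equal totals the KYSE180 siTP63 value was 1.03, and those of GRHL2 and GRHL3 were 1.47 and 1.49. TE6 siTP63 stood at 163 and 179 against 239 and 217, a change of -0.41 ± 0.15 (SE, adjusted p = 0.0383) under the limit. In BRDT-OE, at 1121, 1129 and 1109 against 1082, 1137 and 1057, the interval was -0.11 to 0.19.

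ZNF750, a factor of late differentiation, did not exceed 34 reads in any library. TE6 held 31 and 34 reads in siCont, 34 and 23 in siBRDT and 26 and 15 in siTP63. KYSE180 siTP63 had 2 and 2 reads against 5 and 7, near the floor of 3 reads. With no filter on low values limma called that fall (-1.73, adjusted p = 0.0209), which rests on these few reads. In BRDT-OE it went from 27.1, 12.3 and 7.67 to 6.02, 7.61 and 5.62 normalised counts, -1.004 ± 0.45 (SE, adjusted p = 0.0826). The groups did not overlap. edgeR called it (-1.31, adjusted p = 0.0467), and so did limma without control replicate 3 (-1.39, adjusted p = 0.0133).

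The same knockdown was then compared between KYSE180 and TE6 as a difference of fold changes, each estimated within its own table. For siBRDT 3 of 9 genes differed at an adjusted p under 0.05, against 41.9% of 12612 genes. GRHL3 differed by 2.32 ± 0.24 (KYSE180 minus TE6, log2; adjusted p = 1.40e-06), KLF4 by -1.08 ± 0.18 (adjusted p = 0.000179) and GRHL2 by 0.64 ± 0.14 (adjusted p = 0.00153). The SOX2 responses differed by 0.076 with an interval of -0.15 to 0.30, and by 0.27 (adjusted p = 0.0443) with equal totals. KLF5 differed without TE6 siBRDT replicate 1 (0.80), and PITX1 without TE6 siCont replicate 1 (-0.49) or siBRDT replicate 2 (-0.41). BRDT itself fell 6.75-fold in KYSE180 and 4.70-fold in TE6.

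For siTP63 7 of the 8 genes tested differed between KYSE180 and TE6 (KYSE180 minus TE6), against 55% of 12780 genes. KLF5 differed by 2.22 ± 0.26 (adjusted p = 1.44e-06), KLF4 by 1.23 ± 0.27, PAX9 by 1.02 ± 0.18, SOX2 by 0.99 ± 0.16, TFAP2A by 0.92 ± 0.22, GRHL2 by 0.71 ± 0.19 and PITX1 by -1.01 ± 0.21. GRHL3, which rose in both lines, had a difference of 0.36 (interval -0.21 to 0.93), and passed with equal totals (0.89, adjusted p = 0.00925) and after subtraction of the GC and length trends (0.63, adjusted p = 0.0415). PITX1 no longer differed after subtraction of the GC and length trends (-0.20, adjusted p = 0.238). TP63 itself fell by 2.74 less on the log2 scale in KYSE180 than in TE6, and its part in these differences was not tested. No member differed between KYSE150 and either line, where 1.62% and 3.86% of genes did. Without KYSE150 siTP63 replicate 1, the difference KYSE180 minus KYSE150 was 2.11 for KLF5 and -1.07 for PITX1, both called. Without siTP63 replicate 2, TE6 minus KYSE150 was called at -0.998 for KLF4, 0.87 for PITX1, -1.10 for PAX9 and -0.80 for TFAP2A, and without KYSE150 siCont replicate 2 at -1.41 for PAX9.

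**Figure D4:**
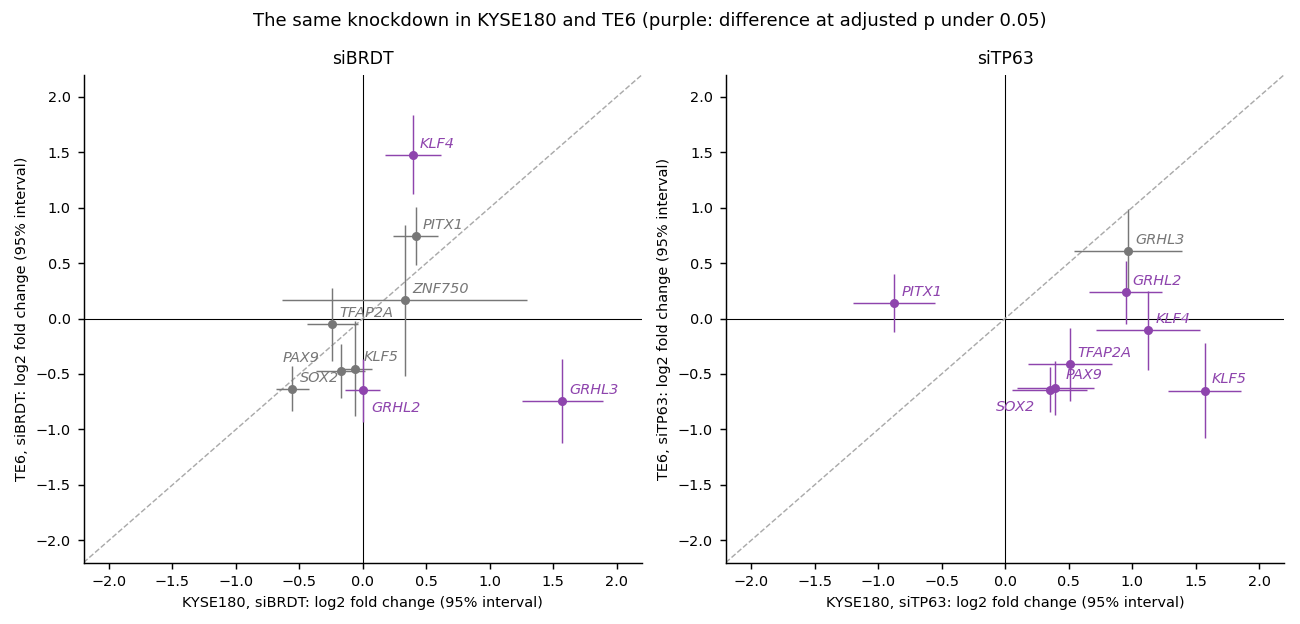
Log2 fold changes of the genes in KYSE180 (x axis) and TE6 (y axis) after siBRDT (left) and siTP63 (right), with 95% intervals. The dashed line marks equal change, and purple marks a difference at an adjusted p under 0.05. GRHL3 is right of and below the line for siBRDT. In the siTP63 panel KLF4, KLF5, SOX2, PAX9 and TFAP2A have positive values in KYSE180 and negative values in TE6. The TE6 value of KLF4 is -0.11, with an interval of -0.46 to 0.25.

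Within a line the responses to the siRNAs were also compared. In KYSE180 all 8 genes tested differed, against 65.1% of 13311 genes, between experiments with separate controls. The log2 fold change of KLF5 against its own siCont was 1.64 higher for siTP63 than for siBRDT. Those of GRHL2 and SOX2 were 0.95 and 0.91 higher. GRHL3 was different by -0.61 (adjusted p = 0.0409), a call lost after upper-quartile scaling (adjusted p = 0.142) and scaling to equal totals (adjusted p = 0.561), with no filter on low values (adjusted p = 0.0673), with the trends subtracted (adjusted p = 0.116) and without any 1 of 6 libraries. PAX9 (0.57) lost its call after subtraction of the GC and length trends (0.32). In TE6, where both share siCont and the treated groups were compared directly, 4 of 9 genes differed, against 39.2% of 13333 genes. KLF4 differed by -1.58 and PITX1 by -0.61 (siTP63 minus siBRDT), GRHL3 by 1.35 and GRHL2 by 0.88. Without TE6 siBRDT replicate 2, KLF5 (-0.61) and TFAP2A (-0.47) differed as well.

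A list of 16 basal squamous genes linked to p63, among them FAT2 and KRT14, was chosen with earlier results of these data known. Its counts are therefore a description. Of the 16, all tested, siBRDT lowered 11 in KYSE180 and 10 in TE6 and raised none, where 15.8% and 18.1% of all genes tested fell. siTP63 lowered 8 and raised 3 in KYSE180 (25.7% of all genes down and 23.6% up) and lowered 13 in TE6 (20.6% down). Their median log2 fold change was -0.69, -0.73, -0.51 and -1.26, beside medians of all genes from -0.039 to 0.00064. BRDT-OE lowered 3 and raised 3 (16% down and 10.5% up), and in KYSE150 siTP63 no gene of any list was called. FAT2, an atypical cadherin, went from 2817 ± 366 to 860 ± 108 normalised counts in KYSE180 siBRDT (SD, n = 3) and from 1115 ± 41.9 to 27.5 ± 3.33 in TE6 siTP63 (n = 2).

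Among 27 paralogs in the same families, 23 were tested in KYSE180 siBRDT, where 11 fell and 4 rose (15.8% and 14.5% of all genes), and 22 in KYSE180 siTP63, where 3 fell and 14 rose (25.7% and 23.6% of all genes) with a median of 0.93. GRHL1, a further grainyhead gene, rose from 82.6 ± 16.7 to 352 ± 21.5 in KYSE180 siTP63, as GRHL2 and GRHL3 did. SOX15, expressed in squamous epithelium, fell there from 589 ± 5.15 to 130 ± 29.9 and in TE6 siTP63 from 247 ± 2.33 to 43.1 ± 6.58, but rose from 485 ± 56.5 to 982 ± 105 in KYSE180 siBRDT. In TE6 6 paralogs fell and 1 rose of 21 after siBRDT (18.1% and 15.6% of all genes), and 4 fell and 5 rose after siTP63 (20.6% and 18.3%). BRDT-OE lowered 5 and raised 2 of 21 (16% and 10.5%), with SOX4 falling from 266 ± 12.9 to 84.8 ± 7.03.

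Of 15 epithelial junction and polarity genes, several of them known grainyhead targets, 7 rose and 2 fell in KYSE180 siTP63 and 6 rose and 2 fell in TE6 siTP63, where 49.3% and 38.9% of all genes were called. CGN, a tight-junction protein, went from 332 ± 29.2 to 970 ± 39.1 in the former, and CLDN4, a claudin, from 2030 ± 74.2 to 5188 ± 261 in the latter. After siBRDT 4 rose and 2 fell in KYSE180 and 1 rose and 4 fell in TE6, where 30.3% and 33.7% of all genes were called. VANGL2, a planar polarity gene, fell in both lines after siBRDT, from 1299 ± 93.1 to 585 ± 25.3 and from 575 ± 36.6 to 327 ± 15.5. BRDT-OE raised 1 and lowered 5, beside 10.5% and 16% of all genes.

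Late differentiation genes were mostly too low to test, with 8 to 12 of 25 passing the minimum. In KYSE180 siTP63 3 rose and 4 fell of 12 tested (49.3% of all genes called), and in TE6 siTP63 5 rose and 3 fell of 10 (38.9%). KRT4, a suprabasal keratin of esophagus, rose in both, from 862 ± 200 to 3412 ± 332 and from 257 ± 36.3 to 1912 ± 74.4, while KRT13 in TE6 siTP63 fell from 7831 ± 571 to 2451 ± 81.2. Of 26 other epithelial transcription factors, 11 rose and 3 fell of 25 tested in KYSE180 siTP63 (23.6% and 25.7% of all genes), with EHF, an epithelial ETS factor, going from 203 ± 31.1 to 1146 ± 50.6. In TE6 siTP63 9 fell and 6 rose of 24 (20.6% and 18.3% of all genes), including ID1, an inhibitor of helix-loop-helix factors, from 5535 ± 339 to 14756 ± 121. In KYSE150 BRDT-OE 6 fell and 4 rose of 19 (16% and 10.5%), ELF3 falling from 1101 ± 101 to 274 ± 76.0.

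The genes most like each member were sought over the 26 libraries, as the Pearson correlation of log2 values after subtraction of each experiment's control mean, among 8308 genes. The libraries fall into treatment groups and share controls, so these values are a description. KLF4 was most like IFIT2 (0.94) and STC2 (0.91), KLF5 like CLIC4 (0.97) and USP33 (0.96), and PITX1 like TMEM161A (0.98) and MRPL55 (0.97). GRHL2 was most like TTC17 (0.97) and USP6NL (0.96), PAX9 like OSMR (0.91) and FAM120B (0.89), and TFAP2A like FAM84B (0.90) and ARHGAP12 (0.88). SOX2, ZNF750 and GRHL3 were too low in part of the libraries to enter this search.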

How the data were processed

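Gene-level tables of 26 mRNA-seq libraries (11 groups, 3 ESCC lines) were used. Per the submitters' processing notes, reads were mapped to hg38 with STAR 2.6.0 and counted with HTSeq 0.11.2. The deposited signal values are counts that the authors divided by DESeq2 1.24.0 size factors within each of 5 tables, so tables were normalised separately. The annotation and strand setting were not given in the sources used here. Groups were taken from the labels. Within a library 100% of the values were whole multiples of what 1 read is worth (tolerance 0.01), which gave the reads back (7582089 to 19372441 per library).

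Log2(value + 1) was tested with limma 3.58.1 (R 4.3.3, eBayes with a trend) for genes with a mean of at least 10, with Benjamini-Hochberg adjustment over all genes tested. Fold changes are on this scale, which understates those of low genes. A gene was called where the adjusted p was below 0.05 and the change 0.5 or more on the log2 scale, and differences between fold changes at an adjusted p under 0.05. The TE6 groups shared 1 fit. Levels between genes were compared as RPM per kb of GENCODE release 44 transcripts, and transcript length and GC content were matched for 23161 of 26485 symbols (87.4%). The 9 genes are named in every comparison, and from each other list some of the genes with the largest called changes. The members and all gene lists were chosen with earlier results of these data known. Alternatives were a pseudocount of 0.1, no filter, upper-quartile scaling, a replicate block, no fold limit, both edgeR 4.0.16 and DESeq2 1.42.0 run on recovered reads, and leaving out each library. Scaling to equal totals, subtraction of GC and length trends (splines with 4 degrees of freedom) and a crossed block were added after seeing the data. Scripts were tested on simulated data. Floors of 3 reads cover counting error only. Python 3.11.15 and matplotlib 3.10.9 were used for tables and figures.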

Additional observations from a re-analysis of the deposited data

Results flagged for a closer look

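The results below stood out because the same knockdown changed a gene differently in different lines, by the limma test of the difference itself (log2, adjusted p under 0.05). After siBRDT the differences, KYSE180 minus TE6, were 2.32 for GRHL3, -1.08 for KLF4 and 0.64 for GRHL2, beside 0.57 for TP63 and -0.52 for BRDT. After siTP63 they were 2.22 for KLF5, 1.23 for KLF4, 1.02 for PAX9, 0.99 for SOX2, 0.92 for TFAP2A, 0.71 for GRHL2 and -1.01 for PITX1, beside 2.74 for TP63. Between TE6 and KYSE150 only TP63 differed after siTP63 among the genes named here, by -2.10 (TE6 minus KYSE150). No cause was tested. No group of this series was large enough for a test of single outlying libraries.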

How the results depend on the processing

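The number of members called kept within 1.5 times its value in the other comparisons and alternatives and moved in these and, for KYSE150 siTP63, with the crossed block given below. In KYSE180 siBRDT it was 5 in place of 2 with no fold limit. In TE6 siBRDT it was 3 in place of 5 with the GC and length trends subtracted. In TE6 siTP63 it was 2 in place of 4 with those trends subtracted, and 2 to 4 with 1 library left out (2 without siCont replicate 2, siTP63 replicate 1 or siTP63 replicate 2). In BRDT-OE it was 2 in place of 1 with edgeR, with no fold limit and with the trends subtracted, and 1 to 2 with 1 library left out (2 without control replicate 3). For siBRDT, KYSE180 minus TE6, it was 6 in place of 3 with equal totals. For siTP63 the difference from KYSE150, called for 0 members, was called for 1 with the trends subtracted in either line, for 0 to 2 with 1 library left out in KYSE180 and for 0 to 4 in TE6. The cause was not tested.

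Outside the KYSE150 TP63 experiment replicate numbers showed little pairing, with correlations of same-numbered deviations from -0.0836 to 0.178. In the KYSE150 TP63 experiment the correlation was -0.703, so same-numbered libraries mostly deviated in opposite directions. The source of that shared variation was not tested. With a replicate block the members called were 2, 5, 6, 4, 0 and 1, in the order of the 6 comparisons in the plot of fold changes, and no call of a member changed. Over all genes KYSE150 siTP63 had 137 calls in place of 0. A crossed block there, chosen after seeing the data, called 3400 genes and 2 members.

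Values that changed sign were called in neither setting. In KYSE180 siBRDT GRHL2 (-0.0014) was 0.021 with upper quartiles, 0.013 in edgeR, 0.0026 in DESeq2, 0.086 with equal totals and 0.056 with the trends subtracted, and KLF5 was 0.024 with equal totals. With the trends subtracted, TFAP2A was 0.017 in TE6 siBRDT, PITX1 -0.28 in TE6 siTP63, 0.040 in the siBRDT difference and -0.051 in TE6 minus KYSE150, and SOX2 0.0053 in TE6 siTP63 minus siBRDT (0.084 with equal totals). In BRDT-OE KLF5 was -0.027 and -0.053, and TFAP2A -0.061 and -0.086, with upper quartiles and equal totals, and PAX9 in KYSE180 minus KYSE150 was 0.087 and 0.34.

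With 1 library left out, signs changed over these ranges. In KYSE180 siBRDT GRHL2 ran from -0.036 to 0.032 and ZNF750 from -0.21 to 0.38. In TE6 siBRDT TFAP2A ran from -0.17 to 0.059 and ZNF750 from -0.039 to 0.37, and in TE6 siTP63 PITX1 from -0.024 to 0.30. In KYSE150 siTP63 KLF5 ran from -0.54 to 0.26 and PITX1 from -0.73 to 0.20, and in BRDT-OE KLF5 from -0.020 to 0.13. Among differences, siBRDT gave ZNF750 from -0.37 to 0.37 and KLF5 from -0.022 to 0.80, KYSE180 minus KYSE150 gave PAX9 from -0.39 to 0.23 and GRHL2 from -0.021 to 0.46, TE6 minus KYSE150 gave PITX1 from -0.060 to 0.87, and TE6 siTP63 minus siBRDT gave SOX2 from -0.051 to 0.036 and KLF5 from -0.61 to 0.21.

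Groups of 2 or 3 libraries limit every comparison, and ZNF750, and SOX2 and GRHL3 in KYSE150 siTP63, were limited by depth.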
